A study of Rattus norvegicus with 16 samples.

Results

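The transporters that carry drugs, conjugates and sterols across the hepatocyte membranes were followed in the livers of rat pups whose mothers had been dosed with environmental contaminants. They were 9 genes, fixed by name and matched to the array's probes by RefSeq identifier. Each had 1 probe matched in this way among the 30367 probes of the arrays. Whether any of the 12363 probes without a symbol belonged to these genes was not checked. Of the 9 genes, 7 were bright enough to enter the tests, which covered 13146 transcripts in all.

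The livers came from male Sprague-Dawley pups at 21 days of age that had stayed with their own mothers. The M group descended from dams given 1.0 mg/kg/day of a blend of methylmercury, polychlorinated biphenyls (PCBs) and organochlorine pesticides, and the 0.5M group from dams given 0.5 mg/kg/day of it. The AhR group descended from dams given aryl hydrocarbon receptor agonists (non-ortho PCBs, dioxins and dibenzofurans) at 1.8 ng/kg/day in dioxin equivalents. The C group descended from dams given the corn oil vehicle alone, which carried every dose in the other groups as well. Dosing ran through gestation and nursing, so the pups met the chemicals through the placenta and the milk. Each group had 4 arrays, and each array held RNA pooled from 2 pups. The labels do not tie pups to litters. Arrays that shared a litter would make the standard errors and p-values below too small.

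On every array the liver RNA carried the dye Cy5 and a universal rat reference RNA, made from cell lines, carried Cy3. A level below is the log2 ratio of liver over this reference, and a difference is one group's level minus another's. With the dyes never swapped, a level can hold a dye effect, and a dye effect common to all arrays cancels in a difference between groups. Of the 4 arrays of a group, replicates 1 and 2 were on slide 1 and the other 2 on slide 2. Slide 1 was dimmer: 7082 to 13824 probes stood well above background in Cy5 on its arrays, against 13006 to 15686 on slide 2.

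All 8 hepatocyte markers checked were well above background on all 16 arrays. None passed in a comparison with C, and their median difference from C was -0.23 in M (3 of 8 above 0), -0.04 in 0.5M and 0.05 in AhR; its part in the transporter results was not tested. Some arrays also showed transcripts of other tissues. All 8 measured skeletal muscle markers, of 12 in the list, were higher in M 2 and 0.5M 4 than on the other 14 arrays, by a median log2 of 5.33. Of 3 measured exocrine pancreas markers (12 in the list), 2 stood highest in M 1 and AhR 2. Cpa1 was instead highest in 0.5M 4. Of 3 measured fat markers (7 in the list), 2 stood highest in C 2, while Cidec was highest in C 3. The median log2 differences were smaller, at 1.01 for pancreas and 0.54 for fat. These 5 arrays are called arrays with other tissues below, a name that rests on few markers for M 1, AhR 2 and C 2. Of the markers of other liver cells, 0 of 21 measured (28 in the lists) bile duct, endothelial, Kupffer and erythroid genes passed the test described below in any comparison with C. Their list medians ran from -0.05 to 0.18 in M, from -0.10 to 0.04 in 0.5M and from -0.07 to 0.18 in AhR. Of all transcripts, only 0.319% passed in M, 0.0152% in 0.5M and 0.00761% in AhR. The lack of calls among hepatocyte and other liver cell markers therefore says little on cell make-up. Skeletal muscle markers gave 0 calls as well, at median differences from C of 1.51 in M and 1.60 in 0.5M.

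A hepatocyte takes solutes up from the blood at its basolateral (sinusoidal) membrane and passes them into bile at its canalicular membrane. Uptake of many organic anions runs through the organic anion transporting polypeptides of the Slco family. Export is driven by ATP-binding cassette (ABC) pumps, and drug-sensing nuclear receptors and the aryl hydrocarbon receptor are known to act on several of these pumps in rodents. RefSeq promoter windows, 250 bases before to 50 bases after the start of the gene on the GRCr8 build, were at hand for 8 of the 9 genes. Abcc2 is shown because its level differed most clearly between the groups. Its window lies at chr1:252613625-252613924 on the plus strand, and capitals mark the nuclear receptor half-site AGGTCA and its reverse complement TGACCT, which begin 155 and 115 bases before the start.
Abcc2 promoter: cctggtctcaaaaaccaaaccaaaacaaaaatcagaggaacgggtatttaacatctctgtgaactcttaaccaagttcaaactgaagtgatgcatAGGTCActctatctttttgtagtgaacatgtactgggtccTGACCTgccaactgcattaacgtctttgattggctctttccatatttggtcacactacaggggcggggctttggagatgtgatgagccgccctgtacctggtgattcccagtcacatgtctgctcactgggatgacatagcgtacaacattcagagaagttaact
Abcg5 is shown because its window and that of Abcg8 on the other strand share 295 of 300 bases. The start sites of these genes lie 206 bases apart. Its window lies at chr6:15717686-15717985 on the plus strand, and capitals mark the GATA element AGATAA, which begins 126 and 96 bases before the start.
Abcg5 promoter: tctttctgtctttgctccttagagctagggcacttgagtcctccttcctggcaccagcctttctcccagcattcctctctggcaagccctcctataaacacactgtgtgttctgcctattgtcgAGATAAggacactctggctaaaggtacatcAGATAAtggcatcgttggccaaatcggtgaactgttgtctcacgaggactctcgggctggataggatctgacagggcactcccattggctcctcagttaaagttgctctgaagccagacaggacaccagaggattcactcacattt

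Each motif was searched on both strands, and the same search was run on 33469 promoter windows of this length. AGGTCA occurred in 16.2% of them, AGATAA in 11.6%, the antioxidant response core TGANNNNGC in 40.5% and the aryl hydrocarbon receptor core GCGTG in 29.7%. GCGTG occurred 4 times in the Abcb4 window and once in that of Abcg2. TGANNNNGC occurred once each in the Abcc2, Abcg5 and Abcg8 windows. The windows of Abcb1a, Slco1a1 and Slco2b1 held none of the 4 motifs. These matches describe letters in a window and say nothing on whether a factor binds there.

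No transporter passed the test in any comparison. In limma's fit with Benjamini-Hochberg adjustment over all 13146 transcripts, 0 of 7 passed an adjusted p of 0.05 between M and C, where 0.319% of all transcripts passed. The count was 0 of 7 between 0.5M and C (0.0152% of all transcripts) and 0 of 7 between AhR and C (0.00761%). At an unadjusted p under 0.05 the counts were 4 of 7 for M, 2 of 7 for 0.5M and 1 of 7 for AhR, against 10.1%, 6.53% and 3.79% of all transcripts. The transporters were chosen with earlier results of these data known. Such counts beside the share of all transcripts, here and below, are therefore no independent evidence. The median difference of the 7 was -0.01 in M, 0.07 in 0.5M and 0.14 in AhR, and that of all transcripts was 0.00 in each. Groups did not overlap for 0 of 7 transporters between M and C (4.19% of all transcripts), 1 of 7 between 0.5M and C (3.04%) and 0 of 7 between AhR and C (2%). The C arrays enter all 3 comparisons. In a bulk sample, fewer cells of a type and less RNA per cell cannot be told apart.

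**Figure D1:**
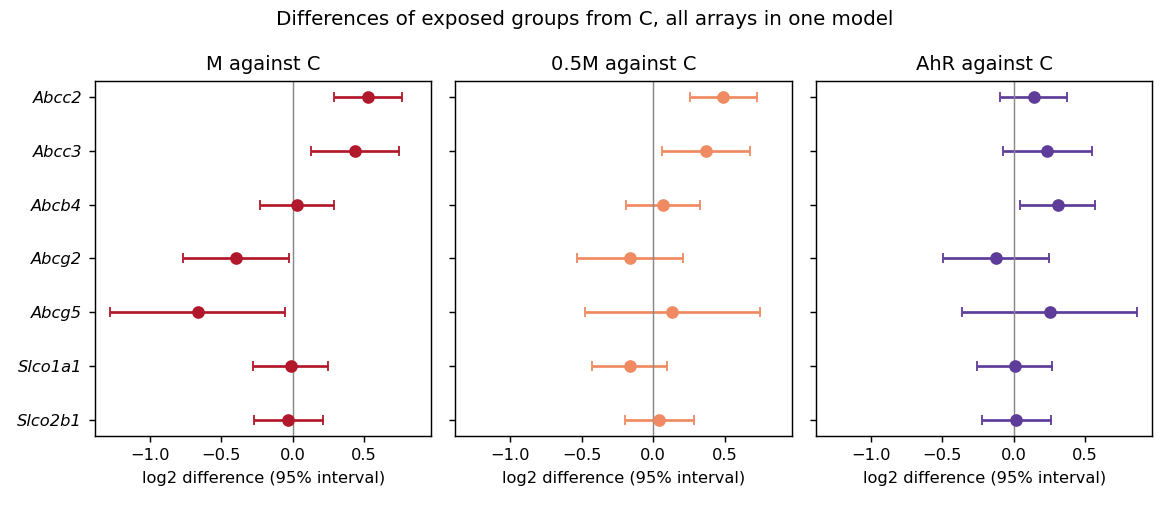
Log2 difference from C (horizontal axis) of each measured transporter in M, 0.5M and AhR livers, from left to right; points are the fitted differences and bars their 95% intervals. The intervals of Abcc2 and Abcc3 lay above 0 in M and 0.5M, those of Abcg2 and Abcg5 lay below 0 in M, and that of Abcb4 lay above 0 in AhR; none of these passed the adjusted test.

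Abcc2 (NM_012833, chromosome 1) encodes Mrp2, the canalicular pump that sends bilirubin glucuronides and glutathione conjugates into bile. Its level was -0.90, -1.39, -0.80 and -0.99 in M livers, against -1.57, -1.66, -1.35 and -1.60 in C livers. The 0.5M livers had -1.04, -1.08, -1.14 and -0.96, all above every C liver. The AhR livers had -1.27, -1.62, -1.36 and -1.36. M and 0.5M livers thus lay mostly above C livers, with M 2 as the single exception, and AhR livers overlapped C livers.

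Abcc2 averaged -1.02 ± 0.26 in M livers and -1.54 ± 0.13 in C livers (SD, n = 4 each), a fitted difference of 0.53 ± 0.11 (SE), or 1.44-fold, with a 95% interval of 0.29 to 0.76. By limma its adjusted p was 0.0593, just above the threshold, and it ranked 53rd of the 13146 transcripts by p. The difference was 0.47 within slide 1 and 0.58 within slide 2. Without M 2, the lowest M array, the difference was 0.64 (adjusted p = 0.00638). M 2 held muscle RNA, as did 0.5M 4, which had the highest level of its group (-0.96). The part of muscle RNA in these levels was not tested. With arrays weighted by their quality the difference was 0.53 (adjusted p = 0.032). Without all 5 arrays with other tissues it was 0.62 (adjusted p = 0.0568). Over 14 alternative settings the adjusted p ran from 0.032 to 0.997, the upper end with median centring in place of loess, where the difference was 0.25 ± 0.38. With each array left out in turn it ran from 0.00638 to 0.249.

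Between 0.5M and C the Abcc2 averages were -1.05 ± 0.08 and -1.54 ± 0.13, and the fitted difference was 0.49 ± 0.11, with a 95% interval of 0.25 to 0.73. It ranked 13th of all transcripts by p but did not pass by limma (adjusted p = 0.471). The difference was 0.55 within slide 1 and 0.43 within slide 2. AhR livers averaged -1.40 ± 0.15, a difference from C of 0.14 with an interval of -0.10 to 0.38 (adjusted p = 1 by limma).

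**Figure D2:**
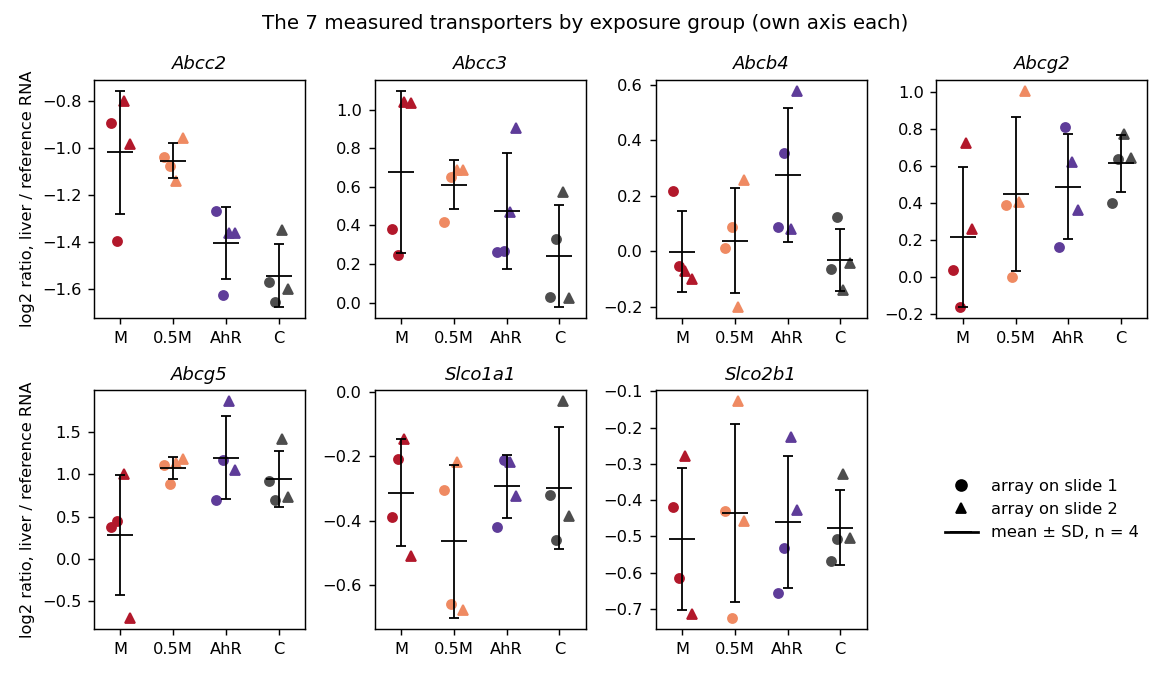
Log2 ratio of liver over reference RNA (vertical axis, its own scale in each panel) for the 7 measured transporters in M, 0.5M, AhR and C livers; circles are arrays of slide 1, triangles arrays of slide 2, and black bars the mean and SD of 4 arrays. Abcc2 levels of the 0.5M group, from -1.14 to -0.96, lay above all C levels, and the lowest M array stood at -1.39 for Abcc2 and at -0.70 for Abcg5.

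Abcc3 (NM_080581, chromosome 10) encodes Mrp3, which exports conjugates back to the blood across the basolateral membrane. Its level was 0.38, 0.25, 1.04 and 1.04 in M livers, against 0.03, 0.33, 0.58 and 0.03 in C livers. The 0.5M livers had 0.42, 0.65, 0.69 and 0.69, and the AhR livers 0.26, 0.27, 0.47 and 0.90. Both M arrays of slide 2 stood above all C arrays, while those of slide 1 did not. The fitted difference from C was 0.44 ± 0.15 in M (adjusted p = 0.27), 0.37 ± 0.15 in 0.5M (adjusted p = 0.725) and 0.24 ± 0.15 in AhR (adjusted p = 1), all by limma. Without C 4 they were 0.29, 0.23 and 0.09, and without AhR 4 the AhR difference was 0.14.

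Within slides the M difference of Abcc3 was 0.13 on slide 1 and 0.74 on slide 2. The 0.5M difference was 0.36 on slide 1 and 0.39 on slide 2. Abcc3 was dim: its Cy5 signal was 70.0 to 101 on slide 1, over a local background of 63.0 to 70.0 on all arrays, and it was well above background on 13 of 16 arrays (3 of 4 in M, 4 of 4 in 0.5M, 3 of 4 in AhR and 3 of 4 in C). Its level was also higher on slide 2 than on slide 1, by 0.35 ± 0.10 (adjusted p = 0.0455 by limma). The scanner software's own ratios gave larger differences, of 1.39 in M, 1.27 in 0.5M and 0.81 in AhR, none past the threshold. Without the 5 arrays with other tissues the M difference was 0.73 (adjusted p = 0.13).

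Abcb4 (NM_012690, chromosome 4) encodes Mdr2, the canalicular transporter that supplies phosphatidylcholine to bile. It stood at 0.09, 0.36, 0.08 and 0.58 in AhR livers, against -0.06, 0.12, -0.14 and -0.04 in C livers. AhR 2 and AhR 4 lay above all C arrays. The difference was 0.31 ± 0.12 with a 95% interval of 0.05 to 0.57, and it did not pass by limma (adjusted p = 1). It was 0.19 within slide 1 and 0.42 within slide 2. Without AhR 4 it was 0.19. In M livers the level was 0.22, -0.05, -0.07 and -0.10, and in 0.5M livers 0.01, 0.09, -0.20 and 0.26, with differences from C of 0.03 and 0.07.

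Abcg2 (NM_181381, chromosome 4) encodes the breast cancer resistance protein, a canalicular pump for drugs and sulfate conjugates. It stood at 0.04, -0.16, 0.73 and 0.26 in M livers, against 0.40, 0.64, 0.78 and 0.64 in C livers. M 1, M 2 and M 4 lay below every C array. The difference was -0.40 ± 0.18 (adjusted p = 0.46 by limma), with -0.58 within slide 1 and -0.22 within slide 2. M 1 was not well above background, and M 1 and M 2, the lowest of the M arrays, showed pancreas and muscle markers. Of the other arrays with such markers, 0.5M 4 (muscle) had the highest level of all 16 arrays (1.01) and AhR 2 (pancreas) the next (0.81). The part of other tissues in the Abcg2 difference was not tested. Without the 5 arrays with other tissues the difference was -0.21, and with the scanner software's own ratios it was -0.92. Over the 16 arrays, after slide means were removed, the Abcg2 level correlated at 0.607 with the number of probes well above background. For the other measured transporters this value ran from -0.422 (Abcc2) to 0.444 (Abcg5). M 1 had the fewest such probes of slide 1 (7082) and M 4 of slide 2 (13006). These values also hold the differences between groups, and the part of array brightness was not tested.

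Abcg2 levels were 0.39, 0.00, 0.40 and 1.01 in 0.5M livers and 0.16, 0.81, 0.62 and 0.36 in AhR livers, with differences from C of -0.16 and -0.12. Both sets of arrays spanned the C range. The spread between arrays of a group was wide for this gene, at a residual SD of 0.28, the 92.1st percentile of all transcripts, for which the median was 0.15.

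Abcb1a (NM_133401, chromosome 4) encodes Mdr1a, a P-glycoprotein that expels lipophilic drugs. On none of the 16 arrays did its probe stand well above background in Cy5. Its signal was 59.5 to 78.5, beside a local background of 61.5 to 69.0, so no difference between groups is given. Abcb1a, Abcb1b and Abcb4 are close relatives, as are the Slco1a genes, and whether their probes pick up each other's RNA was not tested, since the probe sequences were not used here.

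**Figure D3:**
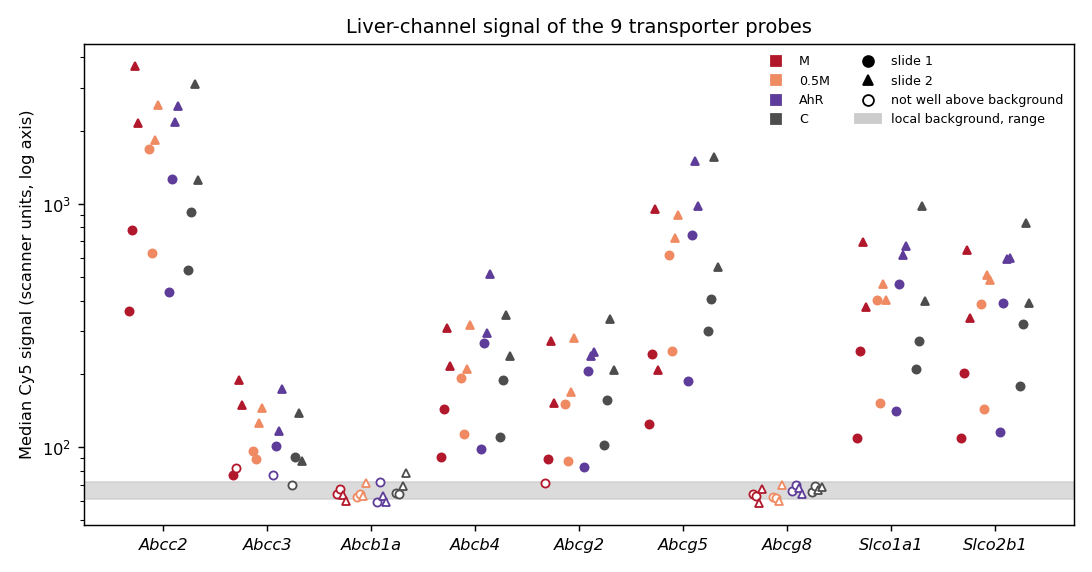
Median Cy5 signal in scanner units (vertical axis, logarithmic) of the 9 transporter probes on the 16 arrays, in the order M, 0.5M, AhR and C within each gene; circles are slide 1, triangles slide 2, open symbols arrays on which the probe was not well above background, and the grey band the range of local background. Abcb1a (59.5 to 78.5) and Abcg8 (58.8 to 69.5) lay at background on all arrays, and each of the other 7 probes had its brightest array on slide 2.

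Abcg5 (NM_053754, chromosome 6) and Abcg8 (NM_130414, chromosome 6) encode the half-transporters that pair to move cholesterol and plant sterols into bile. Abcg5 stood at 0.37, 0.44, 1.00 and -0.70 in M livers, against 0.92, 0.70, 1.42 and 0.74 in C livers. The 0.5M livers had 1.11, 0.88, 1.13 and 1.18, and the AhR livers 0.70, 1.17, 1.87 and 1.05. M 1, M 2 and M 4 lay below every C array, and M 4 lay below every other array of the study.

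The Abcg5 difference between M and C was -0.67 ± 0.29 (adjusted p = 0.441 by limma), with a 95% interval of -1.28 to -0.05. It was -0.40 within slide 1 and -0.93 within slide 2. M 4 set much of it: without M 4 the difference was -0.28, and without M 3 it was -0.90. Abcg5 was also among the most variable transcripts, with a residual SD of 0.48, the 98.3rd percentile. Its correlation with the number of probes well above background was 0.444, and the part of array brightness was not tested. In 0.5M and AhR livers the differences from C were 0.13 (interval -0.48 to 0.74) and 0.25 (-0.36 to 0.86). No array had the Abcg8 probe well above background. It gave a signal of 58.8 to 69.5 beside a local background of 62.0 to 69.0, so no difference is given for the partner of Abcg5.

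Slco1a1 (NM_017111, chromosome 4) encodes Oatp1a1, an uptake carrier for bile acids and steroid conjugates. It stood at -0.39, -0.21, -0.15 and -0.51 in M livers, against -0.32, -0.46, -0.03 and -0.39 in C livers. The 0.5M livers had -0.30, -0.66, -0.22 and -0.68, and the AhR livers -0.42, -0.21, -0.22 and -0.32. The groups overlapped throughout. The differences from C were -0.01 in M (95% interval -0.28 to 0.25), -0.17 in 0.5M (-0.43 to 0.10) and 0.01 in AhR (-0.25 to 0.27).

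Slco2b1 (NM_080786, chromosome 1) encodes Oatp2b1, an uptake carrier for steroid sulfates and many drugs. It stood at -0.42, -0.62, -0.28 and -0.72 in M livers, against -0.57, -0.51, -0.33 and -0.50 in C livers. The 0.5M livers had -0.43, -0.73, -0.13 and -0.46, and the AhR livers -0.66, -0.53, -0.23 and -0.43. These levels overlapped as well, with differences from C of -0.03 in M (-0.27 to 0.21), 0.04 in 0.5M (-0.20 to 0.28) and 0.02 in AhR (-0.22 to 0.26). Neither uptake carrier was shown to differ, and the intervals leave room for differences of about the size of their bounds.

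The exposed groups were also compared with each other. Of the 7 transporters, 0 passed between M and 0.5M (0.0152% of all transcripts passed), 0 between M and AhR (0.266%) and 0 between 0.5M and AhR (0.0228%) by limma. At an unadjusted p under 0.05 the counts were 1, 3 and 1 of 7, against 6.75%, 9.89% and 9.05% of all transcripts. Groups did not overlap for 0 of 7 between M and 0.5M (2.8% of all transcripts), 0 of 7 between M and AhR (4%) and 1 of 7, Abcc2, between 0.5M and AhR (5.01%). The Abcc2 difference was 0.39 ± 0.11 between M and AhR (adjusted p = 0.232) and 0.35 ± 0.11 between 0.5M and AhR (adjusted p = 0.406). Between M and 0.5M its difference was 0.04, with an interval of -0.20 to 0.27.

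The order of the Abcc2 means was therefore M (-1.02), 0.5M (-1.05), AhR (-1.40) and C (-1.54). M and 0.5M did not differ beyond their spread, nor did AhR and C. The Abcg5 difference was -0.80 ± 0.29 between M and 0.5M (adjusted p = 0.605) and -0.92 ± 0.29 between M and AhR (adjusted p = 0.276), neither of which passed by limma. Without M 4 they were -0.41 and -0.53. Abcb4 gave -0.28 ± 0.12 between M and AhR (adjusted p = 0.472), and -0.16 without AhR 4. A test of any difference over the 4 groups passed for 0 of 7 transporters, against 0.175% of all transcripts, with an adjusted p of 0.126 for Abcc2. At an unadjusted p under 0.05 it gave 3 of 7 (Abcc2, Abcc3 and Abcg5), against 9.37% of all transcripts. This count too is no independent evidence, as the transporters were chosen with earlier results known.

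The transporters stood beside a response of drug-metabolising enzymes in the same livers. Of 7 measured response enzymes (8 in the list), 6 rose in M, 2 in 0.5M and 1 in AhR relative to C by limma. Cyp1a1, the classical target of the aryl hydrocarbon receptor, was 4.58 ± 0.18 higher in M (adjusted p = 6.55e-10), 3.74 ± 0.18 higher in 0.5M (1.41e-08) and 2.46 ± 0.18 higher in AhR (7.28e-06). Cyp2b2, a target of the receptor CAR, was 3.16 ± 0.22 higher in M (adjusted p = 1.19e-06) and 1.87 ± 0.22 higher in 0.5M (0.00182), and stood at 0.26 in AhR (adjusted p = 1). Cyp2c6v1, Cyp1a2, Ugt1a6 and Cyp3a23-3a1 also rose in M, by 1.86, 1.76, 1.10 and 1.08, and Nqo1 stood at 0.89 (adjusted p = 0.071). The list of enzymes was chosen with these results already known, so its direction is no independent evidence.

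**Figure D4:**
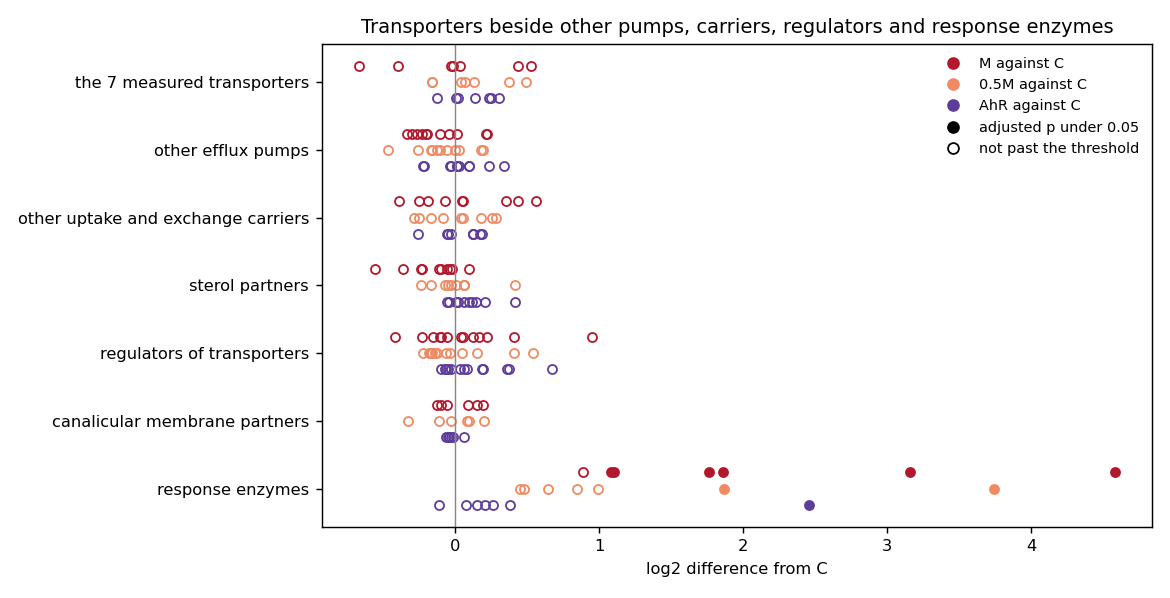
Log2 difference from C (horizontal axis) of the 7 measured transporters and of the genes of 6 lists (rows) in M, 0.5M and AhR livers; each circle is a gene, filled where its adjusted p was under 0.05. Filled circles occur in the row of response enzymes alone, up to 4.58 for Cyp1a1 in M, and the transporters lie between -0.67 and 0.53.

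Other transporters were given from lists, of which 20 of 26 genes were measured: 0 passed in either direction in any of the 3 comparisons with C. Of all transcripts, 0.319% passed in M, 0.0152% in 0.5M and 0.00761% in AhR, so a count of 0 is no result particular to these genes. Of the other efflux pumps, 11 of 11 were measured, with medians of -0.20 in M, -0.11 in 0.5M and 0.01 in AhR. Their smallest p-values were those of Abcc6, which mediates ATP release, at -0.33 ± 0.10 in M (adjusted p = 0.212), of Abcc9, a subunit of potassium channels, at -0.46 ± 0.11 in 0.5M (adjusted p = 0.578), and of Abcc1, another conjugate pump, at 0.24 ± 0.09 in AhR (adjusted p = 1).

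Of the other uptake and exchange carriers, 9 of 15 were measured, with medians of 0.05 in M, 0.04 in 0.5M and 0.12 in AhR. In AhR the smallest p was that of Slc29a1, a nucleoside carrier, at -0.26 ± 0.12 (adjusted p = 1).

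Genes that work with the transporters gave no call either, beside 0.319% of all transcripts in M, 0.0152% in 0.5M and 0.00761% in AhR. Of 12 sterol partners 10 were measured, with medians of -0.11 in M, -0.01 in 0.5M and 0.07 in AhR. Scarb1, the receptor for high-density lipoprotein, stood at -0.37 ± 0.09 in M (adjusted p = 0.117) and at -0.24 ± 0.09 in 0.5M (adjusted p = 0.699), neither of which passed by limma. Of 14 regulators 13 were measured, with medians of 0.04, -0.13 and 0.06. Nr1h4, the bile acid receptor FXR, stood at -0.42 ± 0.11 in M (adjusted p = 0.164), Nfe2l2, the oxidative stress factor Nrf2, at 0.41 ± 0.12 in both 0.5M (adjusted p = 0.603) and M (adjusted p = 0.215) and Ppara, a fatty acid receptor, at 0.37 ± 0.12 in AhR (adjusted p = 1). Of 7 canalicular membrane partners 6 were measured; the smallest p-values were those of Ezr (0.19 in M), Nherf1, a scaffold protein (-0.33 in 0.5M), and Rdx, the linker radixin (0.06 in AhR), with adjusted p-values of 0.649, 0.657 and 1.

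The genes whose level moved most like each transporter were ranked by Pearson correlation over the 16 arrays after slide means were removed. The arrays share their groups, so these values also hold the differences between groups, and they describe these arrays only. For Abcc2 the closest were Pir (0.853), Cyp2b2 (0.845) and Ugt2a3 (0.838). Ube4a (0.891) was closest to Abcc3, Acvr2b (0.807) to Abcb4 and Czib (0.901) to Abcg2. Napa (0.834) was closest to Abcg5, Cldn14 (0.844) to Slco1a1 and Ung (0.895) to Slco2b1.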

How the data were processed

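The files were 16 scan files and the authors' value table. Per the file headers, Agilent Feature Extraction 10.7.3.1 gave, for each of 62976 spots, the median intensity of both dyes, the local background, a log10 ratio and quality marks of 0 or 1 (whether a spot is well above background, saturated or an outlier), and named the build rn4. The authors' deposited table holds log2 ratios of Cy5 over Cy3. Per array they correlated at 0.977 to 0.998 with ratios from the same scan taken without background subtraction. Ratios with subtraction were not set against them, so this does not show whether background was subtracted. The table's remaining steps are not given in the sources used here. Mean intensities were not used here.

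From these, background was corrected with normexp (offset 50) and each array was normalized with loess in limma 3.58.1 under R 4.3.3 with the package data.table (version 1.17.8), with control spots left out and outlier spots dropped. Spots of a probe were averaged and the brightest probe was kept per transcript. Probes were tested where their Cy5 spots stood well above background on 4 or more of the 16 arrays (14524 of 30367 probes, less repeats and 12 with missing values). One limma model held 4 groups and the slide, and p-values were adjusted by Benjamini-Hochberg over 13146 transcripts. Intervals are 95% intervals. No spot of the transporters was saturated. The number of arrays limits the precision. Symbols came from RefSeq annotation of GRCr8; of the probes, 18004 had a symbol and 12363 had none. A trend over the doses equals the difference between M and C and is not repeated. The calculation was tested on simulated data.

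The named genes were all 9 transporters and, from each list, every gene past the threshold in a comparison with C or else the one with the smallest p, except 2 that are not reported here; likeness was named by the highest correlation. Members and lists were chosen with earlier results of these data known. Alternatives changed the background, normalization, filter, slide term, array weights, probe choice and samples. Replicate numbers in the labels were not used to pair arrays.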

Additional observations from a re-analysis of the deposited data

Results flagged for a closer look

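In 28 groups of 4 arrays (7 transporters in 4 groups), 2 held an array far from the other 3, a gap that chance alone gives in about 1 group of 20. Abcc3 stood at 0.42 on the array 0.5M 1, below the other 0.5M arrays at 0.65 to 0.69. Abcb4 stood at 0.22 on the array M 1, above the other M arrays at -0.10 to -0.05.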

How the results depend on the processing

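Of the 42 differences between groups of the 7 transporters, 12 had an interval without 0, and their sign was the same under all 14 alternatives and all 16 left-out arrays (360 of 360 values). Part of this agreement was fixed in advance. In this balanced design, leaving out an array of a group not compared left the difference unchanged. Changes to the filter, slide term, probe choice or groups in the model did so too. The 12 were also picked for their intervals. The number of transporters called was 0 throughout, except between M and C, where it was 1 (Abcc2) with the replicate block in place of the slide (0.53, adjusted p = 0.035), with array weights (0.53, adjusted p = 0.032) and without M 2, so that leaving out single arrays gave 0 to 1. The labels do not say that replicate numbers pair arrays, and the residuals of same-numbered arrays correlated at a median of 0.002 (lowest -0.408, highest 0.193, 24 pairs), against -0.125 for arrays of different number on the same slide (lowest -0.463, highest 0.378), with 1 of 16 arrays closest to one of its own number. The block moved the calls between M and 0.5M to 7 and between 0.5M and AhR to 5. For all transcripts, the 42 calls between M and C became 1 with median centring, 20 with the scanner software's ratios, 66 with array weights, 4 on slide 1 alone and 7 on slide 2 alone (22 to 53 with single arrays left out). The 2 calls between 0.5M and C became 0 with median centring and 1 on slide 1 alone (2 to 3), and the 1 call between AhR and C became 0 in both (1 to 1). The 2 calls between M and 0.5M became 0 with median centring, 4 with weights, 0 on slide 1, 4 on slide 2 and 4 without the 5 arrays with other tissues (2 to 4). The 35 calls between M and AhR became 0 with median centring, 19 with the scanner ratios, 64 with weights, 0 on slide 1, 13 on slide 2, 19 without those 5 arrays and 19 with the groups compared alone (10 to 35). The 3 calls between 0.5M and AhR became 0 with median centring, the scanner ratios and slide 1, and 1 with the groups compared alone (0 to 4). The 23 calls over the 4 groups became 0, 15, 1, 7 and 15 with median centring, the scanner ratios, slide 1, slide 2 and without those 5 arrays (11 to 30). Slides alone and left-out arrays use fewer samples; the cause was not tested for the rest. Probes at background, Abcb1a and Abcg8, set the limit of what these arrays show.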

Other observations

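The genes below passed no adjusted test and were chosen after their values were seen, so they make up no list or theme. Nr0b2, which encodes the bile acid feedback repressor SHP, averaged -0.18 ± 0.37 in M livers and -1.13 ± 0.73 in C livers (SD, n = 4 each), a difference of 0.95 ± 0.27 (adjusted p = 0.19 by limma), with 3 of 4 M arrays above every C array. C 4, at -2.17, lay far below the other C arrays, at -0.99 to -0.48. Relative to C, Nr0b2 also stood at 0.68 ± 0.27 in AhR and at 0.54 ± 0.27 in 0.5M, so the difference was not particular to M. Between M and AhR it was 0.27 ± 0.27. Slco1b2, the liver's organic anion uptake carrier Oatp1b2, averaged -0.67 ± 0.36 in M livers and -1.10 ± 0.12 in C livers, a difference of 0.44 ± 0.12 (adjusted p = 0.19), with 4 of 4 M arrays above every C array. The lowest M array stood at -0.98 and the highest C array at -1.01, and 4.19% of all transcripts had no overlap between these groups. The Slco1b2 difference was 0.19 within slide 1 and 0.68 within slide 2. Cyp7a1, the rate-limiting enzyme of bile acid synthesis, stood at -0.56 ± 0.21 in M relative to C (adjusted p = 0.346), with 3 of 4 M arrays below every C array. Other bile acid genes stood elsewhere relative to C in M: the uptake carrier Slc10a1 at 0.05 ± 0.08 (adjusted p = 0.892) and the bile salt export pump Abcb11 at -0.30 ± 0.27 (adjusted p = 0.762, with 0 of 4 M arrays below every C array). For Nr0b2, Slco1b2 and Cyp7a1, the difference between 0.5M and C did not pass either.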
